A study of Mus musculus with 13 samples.

Results

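The genes described here encode proteins of the synaptic vesicle and of the synapse, followed in Neuro2a cells after a simulated failure of frozen storage. A list of 38 such genes was taken, and a gene was kept where it reached 0.5 FPKM in at least 3 of the 13 libraries, which left 30 of the 34857 genes in the deposited tables. FPKM counts sequenced fragments per length of transcript and per size of the library, so levels can be compared between genes of different length. The 30 kept genes were 7 of 9 vesicle membrane genes, 6 of 6 SNARE and complexin genes, 3 of 3 synaptotagmins, 4 of 7 genes of the active zone and its calcium channels, 2 of 3 adhesion genes, 6 of 8 postsynaptic scaffold genes and 2 of 2 receptor subunits.

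Neuro2a (N2a) is a mouse neuroblastoma cell line, and no gene was edited and no transgene was added per the labels. Experimental cells were frozen in medium with 10% DMSO and left in a nitrogen flask that ran dry over 10 h. Vials stood at 4 °C for a further 24 h and spent 72 h in a -80 °C freezer before a quick thaw at 37 °C and plating. Control cells of the same line were kept frozen throughout and plated by the same protocol. Poly(A) RNA was sequenced at passage 1, when stressed cells had regained fast growth, from 3 control and 4 experimental libraries, and at passage 6, when they looked normal, from 3 control and 3 experimental libraries. The labels do not say whether libraries of a group came from separate vials or flasks, so the p-values measure only the spread between these libraries, which may be technical.

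Neurons release transmitter from vesicles that carry a neurotransmitter load and dock at the active zone of the presynaptic membrane. Fusion is driven by SNARE proteins on the vesicle and the plasma membrane, and is triggered by calcium entering through voltage-gated channels and sensed by synaptotagmins. Across the cleft, adhesion proteins and scaffolds hold the receptors in place. Neuroblastoma cells make many of these proteins for dense-core and small vesicles without forming a brain synapse, and many of the genes are silenced outside the nervous system by REST, a repressor that binds a DNA element called RE1.

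The RE1 core was searched because it is the best known shared sequence element of this gene class and because Rest itself is among the genes tested below. The core of the RE1 motif, which has 13 fixed letters over 15 positions, was sought with up to 2 mismatches on both strands, in windows from 250 bases before to 50 after each RefSeq gene start (GRCm38.p6). A window was found for 29 of the 38 genes, and 4 of these 29 (13.8%) held a match, against 2.22% of all 27025 genes with a window. By window, 4 of 38 (10.5%) held one, against 1.92% of all 32851 windows of that length. The matches were in Syn1, Gria2, Grin1 and Slc17a6, of which Slc17a6 was not kept. The stretches upstream of the annotated starts are shown for the 3 kept genes, 5′ to 3′ on the strand of the gene, with the match in capitals.
Syn1: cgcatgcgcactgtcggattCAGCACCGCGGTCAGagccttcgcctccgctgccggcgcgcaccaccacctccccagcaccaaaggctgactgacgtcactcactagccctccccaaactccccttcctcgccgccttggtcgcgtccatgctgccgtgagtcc
Gria2: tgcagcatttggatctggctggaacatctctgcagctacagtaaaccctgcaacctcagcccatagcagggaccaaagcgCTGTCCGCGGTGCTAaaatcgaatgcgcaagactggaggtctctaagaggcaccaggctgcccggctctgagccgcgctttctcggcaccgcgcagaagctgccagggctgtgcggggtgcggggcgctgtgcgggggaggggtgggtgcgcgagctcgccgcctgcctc
Grin1: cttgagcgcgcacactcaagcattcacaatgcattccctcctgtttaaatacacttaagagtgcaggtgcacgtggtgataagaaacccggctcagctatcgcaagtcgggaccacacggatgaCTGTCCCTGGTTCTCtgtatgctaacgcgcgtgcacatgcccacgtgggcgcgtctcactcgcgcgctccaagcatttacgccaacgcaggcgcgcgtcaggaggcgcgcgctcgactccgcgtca
The Syn1 stretch is chrX:20921005-20921168 on the minus strand, and its match has 1 mismatch and lies on the strand of the gene. For Gria2 the stretch is chr3:80802836-80803085, minus strand, with 1 mismatch and the match on the opposite strand. That of Grin1 is chr2:25319188-25319437, minus strand, with 2 mismatches and the match on the opposite strand. A match is only a run of letters here, and binding was not measured.

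The libraries had FPKM totals of 315034 to 354288, and 12014 to 12467 genes reached 1 FPKM in each. Neuroblastoma identity was checked with Hand2, a transcription factor of the sympathetic lineage, which was at 58.8 to 114 FPKM over the 13 libraries. Experimental libraries 2 and 3 of passage 6 stood apart, because 12 of 13 oligodendrocyte marker genes were higher in both than in any other library. The summed FPKM of that list was 52.1 and 38.7 in these 2 libraries against 4.62 to 8.28 in the other 11, and Mag, Cldn11 and Opalin, which mark myelinating cells, were at 0 in those 11. A list of brain neuron markers, none of them among the genes described here, was higher in both for 15 of 20 genes. Its summed levels were 261 and 225 FPKM against 92.0 to 143. These sums include Ttr, which is also in the liver list and was at 62.0 and 46.1 FPKM in these 2 libraries, so they are not sums of neuron transcripts alone. Nrgn, a forebrain neuron gene, was at 27.8 and 22.9 against 0.808 to 2.16. Astrocyte markers were higher in both for 9 of 12 genes (summed 30.2 and 25.2 against 5.86 to 27.8) and microglial markers for 6 of 8 (76.8 and 78.2 against 37.2 to 91.4). Liver markers, again with Ttr, were higher in both for 19 of 20 genes (285 and 241 against 19.9 to 42.9). Neurons express all of the genes described here, so counts of calls at passage 6 are given with and without these 2 libraries, and most single genes by their value in each library or with library 1 alone. Colon and cartilage markers also moved with the groups at passage 6. There limma called 14 of 20 colon and 7 of 9 cartilage genes tested lower, beside 10.8% of all genes tested. Genes were tested if 3 libraries of the passage reached 1 FPKM. Col2a1, Col9a1, Col11a1, Comp and Matn1 did so only through the controls, so they had to be lower and add nothing to the count. In experimental libraries 2 and 3 only 2 of 23 colon genes reached 1 FPKM, so that count is biased in the same way. The median log2 change was -2.25 for colon and -1.1 for cartilage genes, and -0.785 and -1.3 with library 1 alone. The summed colon list was 132 to 309 FPKM in the controls and 124, 7.24 and 7.54 in experimental libraries 1 to 3. The summed cartilage list was 40.5 to 64.9 against 22.3, 23.3 and 26.7, so library 1 differed from the controls in cartilage markers too. Their part in the passage 6 results was not tested. At passage 1 the summed cartilage list was 12.9 FPKM in control 1 and 16.7 in experimental library 4, against 39.4 to 57.0 in the other 5, and the summed colon list ran from 7.39 in experimental library 3 to 552 in control 1. The part of these transcripts in the passage 1 results was tested only by leaving out control 1 and experimental library 4.

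The 8 genes that were not kept were Slc17a6 and Slc17a7, which load glutamate into vesicles, the active zone scaffolds Rims1 and Pclo, the calcium channel Cacna1a, the adhesion gene Nlgn3, and the postsynaptic scaffolds Shank3 and Homer2. All 8 were higher in experimental libraries 2 and 3 of passage 6 than in each of the other 11 libraries, which was not counted over all genes. Slc17a7 was at 7.00 and 4.62 FPKM in these libraries and at 0.0424 to 0.199 in the other 11, and Slc17a6 was at 0.176 and 0.0487 and listed at 0 in the other 11. Cacna1a, Slc17a7 and Shank3 lay just outside the threshold with 2 libraries at 0.5 FPKM or more, and Shank1 lay nearest inside it with 5. Shank1 itself was at 1.89 and 1.53 FPKM in these 2 libraries and at 0.292 to 0.621 in the other 11.

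**Figure D1:**
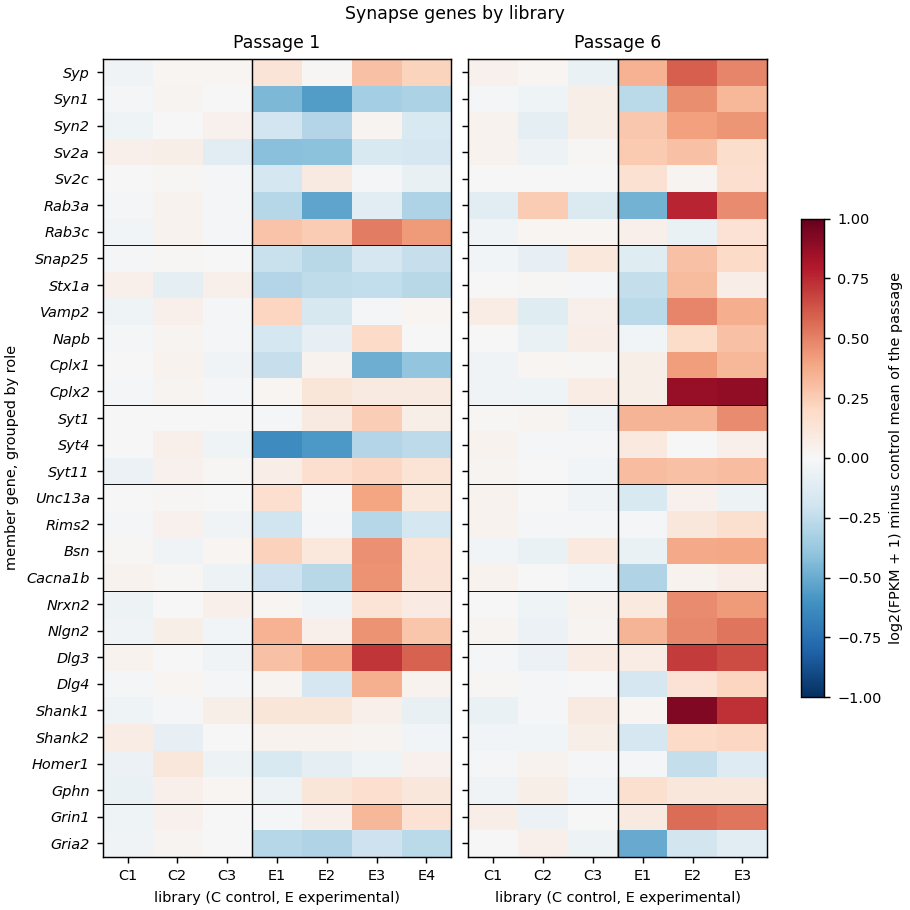
Each cell is log2(FPKM + 1) in 1 library minus the mean of the 3 control libraries of its passage, for the 30 kept genes in rows, grouped by role between black lines. At passage 6 the columns of experimental libraries 2 and 3 are mostly red, with 27 of 30 genes above the control mean on average, whereas 16 of 30 are above it in experimental library 1. The share over all genes was not counted.

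At passage 1, 6 of the 27 genes tested were lower and 3 were higher in experimental than in control cells. Those that fell were Syn1, Sv2a and Rab3a of the vesicle membrane, the SNAREs Snap25 and Stx1a, and the synaptotagmin Syt4, by 1.17-fold to 1.35-fold. Those that rose were Rab3c of the vesicle membrane (1.29-fold), the adhesion gene Nlgn2 (1.22-fold) and the postsynaptic scaffold Dlg3 (1.41-fold). The test was limma on log2(FPKM + 1) over all 12469 genes with at least 1 FPKM in 3 libraries of the passage, with Benjamini-Hochberg adjusted p under 0.05. Over all genes tested, 11.5% were higher and 18.9% lower, so 3 of 27 and 6 of 27 are near the background shares. Of the 3, Dlg3 reached 1 FPKM in its experimental libraries only, so it could only be higher and adds nothing to the count. The median log2 change was 0.02 over the 27 genes and -0.05 over all genes tested. Bsn, Shank1 and Gria2 were below the filter. Control and experimental libraries did not overlap for 3 genes tested on the higher side, Dlg3 among them, and 6 on the lower. Over all genes tested the shares were 15.8% and 26.9%.

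Without control 1 and experimental library 4, limma called Syn1 alone lower and 0 genes higher, beside 4.72% lower and 3.54% higher over all genes tested. At an unadjusted p under 0.05 that setting gave 6 lower and 2 higher, beside 18.2% and 10.9% of all genes. When the libraries were set to equal FPKM totals or scaled by the median of ratios, 4 genes were higher and 4 lower, since Syt11 was added and Sv2a and Rab3a were lost, and quantile normalization gave 3 higher and 4 lower. Over all genes these scalings gave 13.8%, 14.8% and 14.6% higher and 14.5%, 14.1% and 14.6% lower. The counts for the genes described here, with Dlg3 again among those higher, are thus also near the background.

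**Figure D2:**
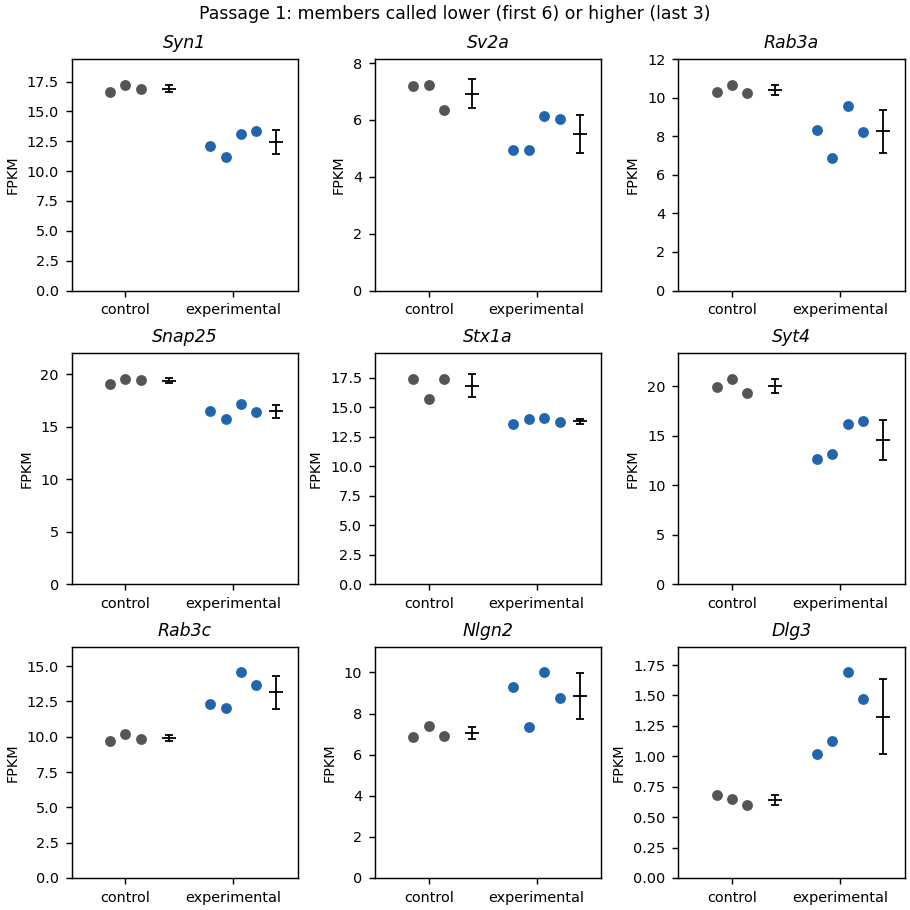
FPKM of the 9 genes called at passage 1 in each of 3 control (grey) and 4 experimental (blue) libraries, with the mean and SD as a bar beside the points. The first 6 are lower in every experimental library, and of the last 3 only Nlgn2 overlaps, at 7.36 FPKM in experimental library 2 against 7.40 in control 2.

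Among the vesicle membrane genes, Syn1 encodes synapsin I, which tethers vesicles to each other and to actin. It was at 16.7, 17.2 and 16.8 FPKM in the controls and at 12.1, 11.2, 13.1 and 13.4 in the experimental libraries. All 4 were below all 3 controls, and the log2 change was -0.42 ± 0.06 (SE; 1.33-fold lower, adjusted p = 0.0029). Syn1 was called lower under all 18 alternatives run, with an adjusted p of at most 0.031. Its exons share 9 bases with Araf on the other strand. Synapsin II, encoded by Syn2, was at 22.7, 23.4 and 24.2 FPKM in the controls and 20.4, 18.9, 23.9 and 21.0 in the experimental libraries, and these groups overlapped (adjusted p = 0.16).

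Sv2a, a vesicle glycoprotein that is the target of the drug levetiracetam, was at 7.20, 7.24 and 6.34 FPKM in the controls. The experimental libraries held 4.94, 4.95, 6.14 and 6.02 FPKM, all below the controls (log2 change -0.29 ± 0.09, adjusted p = 0.040). Experimental libraries 1 and 2 were lower than 3 and 4, and the call was lost under 11 of 18 alternatives. Its paralog Sv2c was the most abundant vesicle membrane gene, with 30.2, 30.5 and 29.8 FPKM in the controls and 26.6, 32.3, 30.0 and 28.5 in the experimental libraries. The Sv2c groups overlapped and the change was not called (log2 change -0.04 ± 0.06, adjusted p = 0.65).

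The pair of small GTPases Rab3a and Rab3c, which guide vesicles to the membrane, changed in opposite directions. Rab3a was at 10.3, 10.7 and 10.3 FPKM in the controls and 8.34, 6.90, 9.57 and 8.21 in the experimental libraries, and was lower in all 4 (log2 change -0.31 ± 0.09, adjusted p = 0.034). That call was lost under 12 of 18 alternatives, and its exons share 29 bases with Mpv17l2 on the other strand. Rab3c was at 9.73, 10.2 and 9.86 FPKM in the controls and 12.3, 12.02, 14.6 and 13.6 in the experimental libraries, and was higher in all 4 (log2 change 0.37 ± 0.07, 1.29-fold, adjusted p = 0.0065). It lost its call only without control 1 and experimental library 4 (adjusted p = 0.081). Syp, which encodes the abundant vesicle protein synaptophysin, was at 10.5, 11.0 and 11.0 FPKM against 11.95, 10.9, 13.5 and 12.8, with overlap at experimental library 2 (adjusted p = 0.11).

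Of the fusion genes, Snap25 and Stx1a encode the plasma membrane SNAREs that pair with VAMP2 of the vesicle. Snap25 was at 19.1, 19.6 and 19.5 FPKM in the controls and at 16.5, 15.8, 17.2 and 16.4 in the experimental libraries, which all lay below the controls (log2 change -0.22 ± 0.04, 1.17-fold lower, adjusted p = 0.0080). For Stx1a the controls held 17.4, 15.7 and 17.4 FPKM and the experimental libraries 13.6, 14.0, 14.0 and 13.7 (log2 change -0.27 ± 0.05, 1.20-fold lower, adjusted p = 0.0070). The experimental libraries of Stx1a were tighter than its controls, with an SD of 0.219 against 1.01. Vamp2 was at 12.3, 13.1 and 12.6 FPKM in the controls and 14.9, 11.2, 12.5 and 12.9 in the experimental libraries, on both sides of the controls (log2 change 0.02 ± 0.08, adjusted p = 0.89).

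Complexins clamp and then assist the assembled SNAREs. Cplx1 was the highest of the 30 genes at passage 1, with 65.0, 66.8 and 63.6 FPKM in the controls and 55.4, 66.8, 46.1 and 49.2 in the experimental libraries. The 4 experimental libraries spread widely, library 2 reached the top control, and the change was not called (log2 change -0.27 ± 0.11, adjusted p = 0.11). Cplx2 was at 18.6, 19.1 and 18.4 FPKM against 18.9, 20.4, 19.9 and 19.9 (adjusted p = 0.20). Napb, which encodes the SNAP that helps take spent SNAREs apart, was at 4.53 to 4.68 FPKM in the controls and 3.94 to 5.37 in the experimental libraries (adjusted p = 0.90).

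Among the synaptotagmins, Syt1 is the fast calcium sensor of vesicle release, while Syt4 and Syt11 lack normal calcium binding in the first of their C2 domains. Syt4 was at 19.9, 20.8 and 19.3 FPKM in the controls and 12.6, 13.1, 16.2 and 16.5 in the experimental libraries. All 4 experimental values were below the controls (log2 change -0.44 ± 0.10, 1.35-fold lower, adjusted p = 0.012), and libraries 1 and 2 were the lowest. Leaving out control 2 took its adjusted p to 0.052, and leaving out both control 1 and experimental library 4 also gave 0.052. Syt11 was at 30.5, 32.7 and 32.1 FPKM in the controls and 33.4, 35.8, 36.7 and 35.0 in the experimental libraries, all higher, with an adjusted p of 0.056. Syt1 was at 20.0, 20.1 and 20.0 FPKM against 19.8, 21.4, 24.0 and 20.9, with overlap at library 1 (adjusted p = 0.29).

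At the active zone, Unc13a encodes Munc13-1, which primes vesicles. It was at 15.8, 16.0 and 15.8 FPKM in the controls and 18.0, 15.9, 21.2 and 17.2 in the experimental libraries (log2 change 0.17 ± 0.09, adjusted p = 0.17). Its exons share 495 bases with Colgalt1 on the other strand, which was at 34.4 to 98.1 FPKM, and the sources used here do not say whether the counting used strand. Rims2, which links vesicles to calcium channels, was at 8.32 to 8.86 FPKM in the controls and 6.84 to 8.42 in the experimental libraries (adjusted p = 0.093). Cacna1b, the N-type calcium channel pore, was at 4.09 to 4.40 FPKM in the controls and at 3.58, 3.36, 6.19 and 4.78 in experimental libraries 1 to 4, so it lay on both sides of the controls (adjusted p = 0.92). Bsn, the scaffold bassoon, was not tested and was at 0.530 to 0.589 FPKM in the controls and 0.685 to 1.15 in the experimental libraries, with no overlap.

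On the adhesion and postsynaptic side, Nlgn2 encodes the neuroligin of inhibitory synapses. Its controls were at 6.86, 7.40 and 6.92 FPKM and its experimental libraries at 9.28, 7.36, 10.0 and 8.74 (log2 change 0.28 ± 0.09, 1.22-fold, adjusted p = 0.048), and the call was lost under 11 of 18 alternatives. Dlg3, which encodes the scaffold SAP102, was at 0.684, 0.645 and 0.599 FPKM against 1.02, 1.13, 1.69 and 1.47 (log2 change 0.49 ± 0.11). Dlg3 passed the filter only through its experimental libraries, so among the genes tested it had to be higher and adds nothing to the count. Gphn, which encodes the glycine and GABA receptor anchor gephyrin, was at 11.9, 12.996 and 12.7 FPKM against 12.02, 13.7, 14.2 and 13.7 (adjusted p = 0.33). Nrxn2, a presynaptic partner of neuroligins, was at 4.86 to 5.30 and 4.93 to 5.70 FPKM, and Dlg4, encoding PSD-95, was at 7.45 to 7.62 and 6.56 to 9.87. Shank2, Homer1 and Grin1 were also not called (adjusted p of 0.88, 0.56 and 0.32), and Shank1 was at 0.292 to 0.475 FPKM over the 7 libraries.

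Gria2 encodes the AMPA receptor subunit that blocks calcium entry, and its promoter stretch is the Gria2 line printed above. It was at 0.754, 0.829 and 0.802 FPKM in the controls and at 0.470, 0.456, 0.557 and 0.489 in the experimental libraries, so the groups did not overlap. It lay below the filter of 1 FPKM, and a filter of 0.5 FPKM in 3 libraries would have kept it through its controls, so no test is given. Rest itself was at 3.46, 3.83 and 3.06 FPKM in the controls and 4.27, 4.12, 5.01 and 4.77 in the experimental libraries (log2 change 0.32 ± 0.08, 1.25-fold, adjusted p = 0.024). Without control 1 and experimental library 4 the adjusted p of Rest was 0.15. Of the 3 kept genes with an RE1 match, Syn1 fell, Gria2 was lower but untested by the filter used, and Grin1 was at 2.05 to 2.24 against 2.10 to 2.96 FPKM and not called. A part of Rest in the levels of these 3 genes was not tested.

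**Figure D3:**
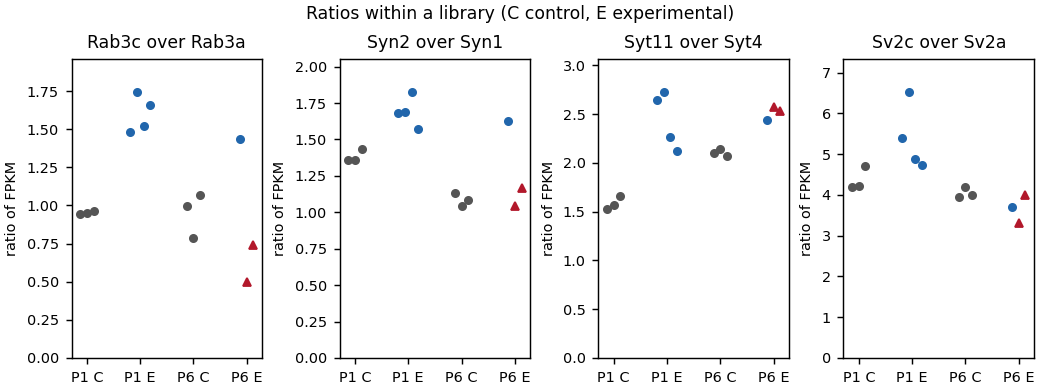
Ratio of the FPKM of a gene to that of its family member within each library, at passage 1 (P1) and passage 6 (P6), for control (C, grey) and experimental (E, blue) libraries, with experimental libraries 2 and 3 of passage 6 as red triangles. Rab3c over Rab3a was 0.946 to 0.961 in the passage 1 controls and 1.48 to 1.74 in the experimental libraries.

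Ratios of paralogs within a library do not depend on how libraries are scaled to each other. They were chosen after the values were seen and are a description, with no test. Rab3c over Rab3a was 0.946, 0.953 and 0.961 in the passage 1 controls and 1.48, 1.74, 1.52 and 1.66 in the experimental libraries. Syn2 over Syn1 was 1.36 to 1.43 against 1.57 to 1.82, Sv2c over Sv2a was 4.20 to 4.70 against 4.74 to 6.52, and Syt11 over Syt4 was 1.53 to 1.66 against 2.12 to 2.73. In each of these 4 pairs the experimental libraries of passage 1 lay above all controls. At passage 6, Rab3c over Rab3a was 0.790 to 1.07 in the controls, 1.44 in experimental library 1, and 0.501 and 0.738 in libraries 2 and 3. Syn2 over Syn1 was 1.04 to 1.13 in the controls, 1.63 in library 1, and 1.04 and 1.17 in libraries 2 and 3. Sv2c over Sv2a went the other way in library 1, at 3.71 against 3.94 to 4.19 in the controls, with 3.31 and 4.00 in libraries 2 and 3. Syt11 over Syt4 was 2.08 to 2.14 in the controls and 2.44, 2.58 and 2.53 in the experimental libraries.

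At passage 6, 6 of the 28 genes tested were higher in experimental cells and none was lower. Those that rose were the vesicle membrane genes Syp, Syn2 and Sv2a, the synaptotagmins Syt1 and Syt11, and Nlgn2, by 1.18-fold to 1.39-fold. Over all 12458 genes tested by limma, 8.98% were higher and 10.8% lower. At an unadjusted p under 0.05, 11 of the 28 were higher and 0 lower, beside 15.3% and 21.1% of all genes. The groups did not overlap for 11 genes on the higher side and 1, Gria2, on the lower, against 17.4% and 24.3% of all genes tested. The median log2 change was 0.16 over the 28 genes and -0.04 over all genes. Dlg3 and Shank1 were not tested, since they reached 1 FPKM only in experimental libraries 2 and 3.

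This count moved with the libraries that carry brain transcripts. Experimental library 1 alone against the 3 controls gave 6 higher and 4 lower, beside 9.14% and 10.1% of all genes, and a median of 0.02 against -0.02. In that fit the lone library is assumed to vary like the controls. The 6 were Syp, Syt1, Syt11, Sv2a, Sv2c and Nlgn2, and the 4 were Syn1, Stx1a, Cacna1b and Gria2. Leaving out library 1 instead gave 17 higher and 0 lower, beside 15.1% and 19.4% of all genes, and 19 and 0 at an unadjusted p under 0.05, beside 19.4% and 26.3%. In bulk RNA, fewer cells of a type and less RNA per cell cannot be told apart, and here RNA of other cells in a library cannot be told apart from a change in the cells.

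**Figure D4:**
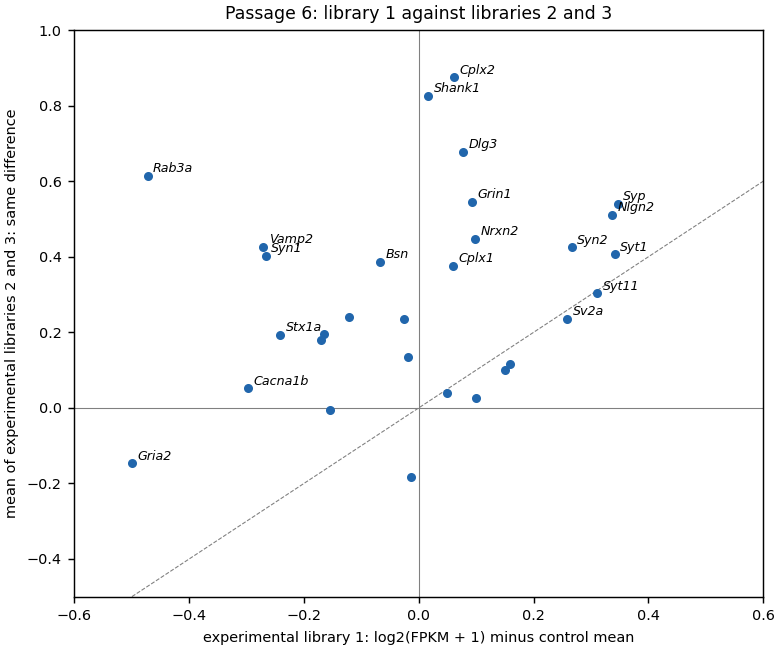
For each of the 30 kept genes at passage 6, log2(FPKM + 1) minus the control mean in experimental library 1 (x axis) against the mean of that difference in libraries 2 and 3 (y axis), with equality dashed. Of the 30 genes, 23 lie above the dashed line, and 11 are below the control mean in library 1 and above it in libraries 2 and 3. The shares over all genes were not counted.

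Over the 30 kept genes, both libraries 2 and 3 were above the other 4 libraries of passage 6 for 19 genes, and above all other 11 libraries for 9. The same counts were not made over all genes. They therefore cannot show whether this split is particular to the genes described here. The median difference from the control mean was 0.03 in library 1 and 0.27 in libraries 2 and 3 on the log2(FPKM + 1) scale. The part of brain RNA in the genes that were higher in libraries 2 and 3 alone was not tested beyond these comparisons.

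Among the vesicle membrane genes, Syp was at 22.5, 22.2 and 20.8 FPKM in the passage 6 controls and 28.0, 33.5 and 30.9 in experimental libraries 1 to 3. All 3 were above the controls (log2 change 0.48 ± 0.07, 1.39-fold, adjusted p = 0.0068), and library 1 alone gave 1.27-fold (adjusted p = 0.018). Sv2a was at 14.2, 13.3 and 13.9 FPKM in the controls and 16.7, 17.2 and 15.7 in the experimental libraries (log2 change 0.24 ± 0.05, 1.18-fold, adjusted p = 0.023), with 1.20-fold in library 1 alone. The Sv2a call was lost under 6 of 17 alternatives, among them leaving out any 1 of the controls. For Syn2 the controls were at 11.4, 10.3 and 11.6 FPKM and the experimental libraries at 13.5, 15.1 and 15.3 (log2 change 0.37 ± 0.07, adjusted p = 0.013). Library 1 was the lowest of those 3, and alone it missed the threshold (adjusted p = 0.066). Sv2c was at 56.0, 55.5 and 55.8 FPKM in the controls and 62.0, 56.9 and 62.9 in the experimental libraries (adjusted p = 0.15), and library 1 alone was called (1.11-fold, adjusted p = 0.035).

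Syn1 and Rab3a split by library. Syn1 was at 10.0, 9.88 and 10.7 FPKM in the controls and 8.30, 14.5 and 13.1 in the experimental libraries, with library 1 below every control and libraries 2 and 3 above. The 3 together gave a log2 change of 0.18 ± 0.18 (adjusted p = 0.50), and library 1 alone gave -0.27 (adjusted p = 0.041), a change of direction. Rab3a was at 6.85, 9.06 and 6.66 FPKM in the controls and 5.10, 13.3 and 10.7 in the experimental libraries (adjusted p = 0.58), and library 1 alone was at a log2 difference of -0.47 (adjusted p = 0.11). Control 2 was itself apart from the other controls for Rab3a. Rab3c, which had risen at passage 1, was at 6.83, 7.15 and 7.12 FPKM against 7.31, 6.67 and 7.90 at passage 6 (log2 change 0.04 ± 0.07, adjusted p = 0.67).

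**Figure D5:**
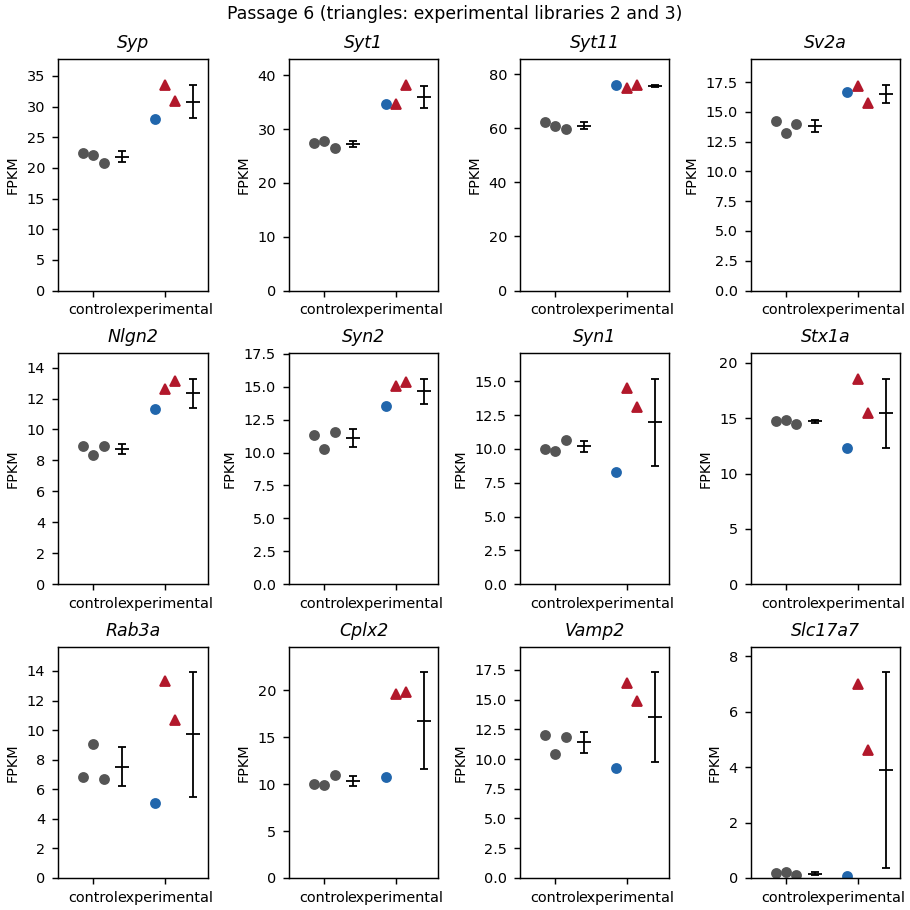
FPKM of 12 genes at passage 6 in 3 control libraries (grey) and in experimental library 1 (blue circle) and libraries 2 and 3 (red triangles), with mean and SD bars. Syp, Syt1, Syt11, Sv2a, Nlgn2 and Syn2 are above the controls in all 3 experimental libraries, Syn1, Stx1a, Rab3a and Vamp2 are below them in library 1 and above in libraries 2 and 3, and Slc17a7 is at 7.00 and 4.62 in libraries 2 and 3 and at most 0.199 in the other 4.

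The SNARE genes showed the same split, and none was called over the 3 libraries. Stx1a was at 14.8, 14.8 and 14.5 FPKM in the controls and 12.3, 18.6 and 15.5 in the experimental libraries (log2 change 0.05 ± 0.13, adjusted p = 0.81), and library 1 alone was at -0.24 (adjusted p = 0.023). Vamp2 was at 12.02, 10.4 and 11.8 FPKM against 9.27, 16.4 and 14.9 (adjusted p = 0.49, and 0.094 for library 1 alone). Snap25 was at 13.1, 12.6 and 14.5 FPKM against 12.2, 16.6 and 15.4 (adjusted p = 0.47, and 0.34 for library 1 alone). In each of these 3 genes library 1 was the lowest of the 6 libraries and libraries 2 and 3 the highest.

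Both complexins were also higher in libraries 2 and 3. Cplx2 was at 10.1, 9.96 and 10.9 FPKM in the controls, 10.8 in library 1, and 19.6 and 19.9 in libraries 2 and 3, so library 1 was among the controls (adjusted p = 0.083 over the 3, and 0.55 for library 1 alone). Cplx1 was at 29.8, 31.0 and 30.8 FPKM in the controls and 31.9, 41.1 and 38.8 in the experimental libraries (adjusted p = 0.078, and 0.36 for library 1 alone). Napb was at 3.07 to 3.47 FPKM in the controls and 3.18 to 4.20 in the experimental libraries.

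For the synaptotagmins, all 3 experimental libraries lay above the control mean. Syt11 was at 62.3, 61.0 and 59.7 FPKM in the controls and at 75.9, 75.0 and 75.9 in the experimental libraries (log2 change 0.31 ± 0.04, 1.24-fold, adjusted p = 0.0049). Library 1 alone gave the same 1.24-fold (adjusted p = 0.010). Syt1 was at 27.4, 27.7 and 26.6 FPKM in the controls and 34.8, 34.7 and 38.3 in the experimental libraries (log2 change 0.38 ± 0.05, 1.31-fold, adjusted p = 0.0054), with 1.27-fold in library 1 (adjusted p = 0.0099). Syt1, Syt11 and Nlgn2 were called higher under all 17 alternatives run at passage 6. Syt4, which had fallen at passage 1, was at 29.6, 28.5 and 28.7 FPKM in the controls and 31.1, 29.1 and 30.0 in the experimental libraries (log2 change 0.05 ± 0.05, adjusted p = 0.46, and 0.15 for library 1 alone).

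At the active zone no gene was called over the 3 libraries. Unc13a was at 26.4, 25.8 and 25.2 FPKM in the controls and 23.1, 26.5 and 24.8 in the experimental libraries (adjusted p = 0.54, and 0.068 for library 1 alone). Cacna1b was at 9.24 to 9.70 FPKM in the controls and at 7.50, 9.69 and 9.97 in the experimental libraries, and library 1 alone was lower (log2 difference -0.30, adjusted p = 0.023). Bsn was at 0.874 to 1.10 FPKM in the controls, 0.875 in library 1, and 1.56 and 1.57 in libraries 2 and 3. Rims2 was at 5.15 to 5.39 FPKM in the controls and 5.16 to 5.97 in the experimental libraries.

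Nlgn2 was at 8.91, 8.37 and 8.93 FPKM in the passage 6 controls and 11.3, 12.6 and 13.1 in the experimental libraries. All 3 were above the controls (log2 change 0.45 ± 0.07, 1.37-fold, adjusted p = 0.0063), and library 1 alone gave 1.26-fold (adjusted p = 0.022). It was the gene of the 30 that was called higher at both passages. Nrxn2 was at 6.84 to 7.26 FPKM in the controls and 7.62, 10.2 and 9.81 in the experimental libraries (adjusted p = 0.058, and 0.29 for library 1 alone). Gphn was at 7.72, 8.32 and 7.77 FPKM against 8.98, 8.68 and 8.67 (adjusted p = 0.12, and 0.14 for library 1 alone), so all 3 libraries were slightly above the controls.

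Of the other postsynaptic genes, Dlg3 was at 0.653, 0.605 and 0.759 FPKM in the controls, 0.763 in library 1, and 1.72 and 1.63 in libraries 2 and 3. Dlg4 was at 6.12 to 6.26 FPKM in the controls and 5.40, 6.96 and 7.36 in the experimental libraries, Shank2 at 1.11 to 1.25 against 0.923, 1.46 and 1.48, and Homer1 at 2.29 to 2.42 against 2.31, 1.83 and 2.06. Homer1, a scaffold that links receptors to calcium stores, was thus lower in libraries 2 and 3 than in the controls. Grin1, the obligatory subunit of NMDA receptors, was at 6.33 to 7.03 FPKM in the controls, 7.16 in library 1, and 10.3 and 10.1 in libraries 2 and 3 (adjusted p = 0.066, and 0.39 for library 1 alone). Gria2 was at 1.53, 1.61 and 1.44 FPKM in the controls and 0.786, 1.22 and 1.34 in the experimental libraries (log2 change -0.26 ± 0.12, adjusted p = 0.15). Library 1 alone was lower by a log2 difference of -0.50 (adjusted p = 0.033), and all 3 were below the controls. Rest was at 3.99 to 4.25 FPKM in the passage 6 controls and 3.80 to 4.22 in the experimental libraries (log2 change -0.05 ± 0.06, adjusted p = 0.59, and 0.88 for library 1 alone).

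The change at passage 6 was compared with the change at passage 1 in 1 contrast over the 13 libraries, in which only differences within a passage enter. Of 29 genes tested, 5 had a higher change at passage 6 (Syn2, Sv2a, Cplx1, Syt1 and Syt4) and 1, Rab3c, a lower one, beside 8.46% and 6.27% of all 13019 genes tested. Sv2a went from a fall at passage 1 to a rise at passage 6, with a difference of 0.53 ± 0.11 on the log2 scale (adjusted p = 0.0086). The fall lost its call under 11 of 18 alternatives and the rise under 6 of 17. The difference lost its call under 1 of 24. Without experimental libraries 2 and 3 of passage 6 the difference of Sv2a was 0.55 (adjusted p = 0.038), and it was then the single gene called, beside 6.26% higher and 4.28% lower over all genes. Syt4 had a difference of 0.49 ± 0.12 (adjusted p = 0.018), and 0.54 without these 2 libraries (adjusted p = 0.054). For Syn2 the difference of 0.52 ± 0.11 (adjusted p = 0.0077) was 0.42 without them (adjusted p = 0.067).

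Other genes of the same pathways were taken from 10 lists of genes that do not include the 38. At passage 1, 33 of 179 such genes tested were higher (18.4%) and 28 lower (15.6%), and at passage 6, 32 of 184 were higher (17.4%) and 16 lower (8.7%). Over all genes tested the shares were 11.5% and 18.9% at passage 1 and 8.98% and 10.8% at passage 6. The doubted libraries were control 1 and experimental library 4 at passage 1, and experimental libraries 2 and 3 at passage 6. Without them the counts were 8 higher and 13 lower at passage 1, beside 3.54% and 4.72% of all genes, and 24 higher and 24 lower at passage 6, beside 9.14% and 10.1%. The vesicle membrane list had 2 higher and 6 lower of 22 at passage 1, and 6 higher and 1 lower of 22 at passage 6. Without the doubted libraries it had 0 higher and 2 lower, and 5 higher and 1 lower. Slc18a2, the vesicular monoamine transporter, fell at both passages, with 22.8, 24.3 and 24.4 FPKM in the passage 1 controls against 11.5, 9.38, 13.9 and 12.3 (1.96-fold lower, adjusted p = 0.00086). At passage 6 it was at 47.7, 48.1 and 47.0 FPKM against 35.7, 32.1 and 34.4 (1.39-fold lower, adjusted p = 0.0028). Svop, a vesicle protein related to the SV2 family, rose at both passages (1.38-fold, adjusted p = 0.011, and 1.55-fold, adjusted p = 0.0059), and Sncb, which encodes beta-synuclein, rose at passage 1 (2.19-fold, adjusted p = 0.021) with experimental libraries between 7.48 and 22.0 FPKM.

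The SNARE partner list had 1 higher and 4 lower of 21 at passage 1 and 1 higher and 3 lower of 21 at passage 6, or 1 and 1, and 0 and 2, without the doubted libraries. Of its named genes, Stx4a, a plasma membrane syntaxin, and Stxbp5, encoding the fusion inhibitor tomosyn, fell at both passages (Stx4a 1.36-fold and 1.24-fold, Stxbp5 1.17-fold and 1.21-fold lower). Its other named genes went the other way. Vamp8 rose at passage 1 (1.51-fold, adjusted p = 0.0025 by limma) and Nsf at passage 6 (1.24-fold, adjusted p = 0.047). In the endocytosis list, 6 of 31 were higher and 6 lower at passage 1, and 2 higher and 2 lower at passage 6. Without the doubted libraries there were 0 higher and 3 lower at passage 1, and 1 higher and 5 lower at passage 6. Synj1, a lipid phosphatase that uncoats vesicles, fell at both, from a mean of 10.9 ± 0.155 to 7.88 ± 0.554 FPKM (SD, n = 3 and 4, adjusted p = 0.0019) and from 10.9 ± 0.202 to 7.84 ± 0.890 FPKM (SD, n = 3 and 3, adjusted p = 0.012). Among 21 and 22 other active zone genes, 2 were higher and 2 lower at passage 1 and 0 higher and 2 lower at passage 6 (2 and 7 by limma at an unadjusted p under 0.05). Without the doubted libraries 0 were higher and 2 lower at passage 1, and 0 higher and 5 lower at passage 6, where the median log2 change went from -0.06 to -0.18. Rims4, a small RIM protein, was at 4.95, 4.90 and 4.72 FPKM in the passage 1 controls and 2.17, 2.56, 2.62 and 2.05 in the experimental libraries (1.75-fold lower, adjusted p = 0.00038). Of the other synaptotagmins and calcium sensors, 2 of 8 were higher and 1 lower at passage 1, and 1 of 9 was higher and 0 lower at passage 6 (3 and 1 by limma at an unadjusted p under 0.05). Without the doubted libraries these were 0 and 0, and 1 and 1.

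Among the other adhesion genes, 7 of 19 were higher and 1 lower at passage 1, and 9 of 19 were higher and 1 lower at passage 6, or 4 and 1, and 6 and 1, without the doubted libraries. Ntng2, a netrin-G that organizes synapses, fell 1.85-fold at passage 1 (adjusted p = 0.00011), and Tenm4 and Ptprs, adhesion receptors, rose 1.62-fold and 1.43-fold (adjusted p = 0.0038 and 0.00089). Lrrc4b, a postsynaptic adhesion protein, was at 4.88, 4.24 and 4.85 FPKM in the passage 6 controls and 8.62, 10.8 and 9.69 in the experimental libraries (1.89-fold, adjusted p = 0.0020), with 1.70-fold in library 1 alone (adjusted p = 0.0090). The postsynaptic scaffold list had 8 higher and 5 lower of 30 at passage 1 and 5 higher and 3 lower of 30 at passage 6, or 3 and 3, and 4 and 4, without the doubted libraries. Camk2a, the kinase subunit abundant in forebrain synapses, fell 1.66-fold at passage 1 (adjusted p = 0.00023), and Grip1, an AMPA receptor anchor, fell 1.52-fold and 1.34-fold at the 2 passages (adjusted p = 0.00034 and 0.0091). Arc, also of this list, rose 1.52-fold and 1.78-fold at the 2 passages (adjusted p = 0.038 and 0.0044 by limma). Dbn1, which encodes the actin-binding drebrin, rose 1.45-fold at passage 6 (adjusted p = 0.0021).

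In the receptor list, 2 of 12 genes were higher and 2 lower at passage 1 (0 and 1 without control 1 and experimental library 4), while 8 of 15 were higher and 0 lower at passage 6, or 7 and 0 with library 1 alone (11 and 0, or 7 and 0, by limma at an unadjusted p under 0.05, which 16.3% and 20% of all genes passed with library 1 alone). Cacng7, an auxiliary subunit of AMPA receptors, was at 17.2, 16.3 and 17.9 FPKM in the passage 6 controls and 21.6, 27.4 and 26.2 in the experimental libraries (1.43-fold, adjusted p = 0.011), and library 1 alone gave 1.25-fold (adjusted p = 0.028). The calcium channel list had 1 higher and 1 lower of 5 at passage 1 and 0 higher and 2 lower of 5 at passage 6, also at an unadjusted p in limma, or 0 and 0, and 0 and 3, without the doubted libraries. At passage 1 without control 1 and experimental library 4, lists with a count of 0 were recounted at an unadjusted limma p under 0.05. They then had 1 to 4 genes in that direction, except 0 lower in the REST complex list. Cacna1i, a T-type channel, fell at passage 6 (1.32-fold, adjusted p = 0.013). Of the 10 genes of the REST complex list, Rest and Hdac1 rose at passage 1, and Rcor1 and Hdac2 fell at passage 6. Of the genes named from the lists, Sncb, Svop, Stxbp5, Tenm4, Rest, Hdac1 and Arc lost their passage 1 call without control 1 and experimental library 4 (limma adjusted p of 0.15, 0.099, 0.11, 0.056, 0.15, 0.10 and 0.20). Rcor1 and Nsf lost their passage 6 call without experimental libraries 2 and 3, at 1.18-fold lower and 1.09-fold higher. The other genes named here with a passage 6 call changed in the same direction with library 1 alone. Falls ran from 1.13-fold for Hdac2 to 1.46-fold for Grip1, with Slc18a2 at 1.32-fold. Rises ran from 1.25-fold for Cacng7 to 2.07-fold for Arc, with Lrrc4b at 1.70-fold and Svop and Dbn1 at 1.36-fold.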

How the data were processed

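Poly(A) RNA of 13 libraries was measured by sequencing. The authors deposited FPKM in 1 table per passage, made with HISAT2, StringTie, cutadapt, edgeR and DESeq2 on mm10 as far as the submitters' processing notes list tools. How FPKM were scaled between libraries is not given in the sources used here. FPKM hold no counts, so depth is unknown and the spread between libraries was the measure of precision. Low values put the relative depth at 1 to 1.34 (passage 1) and 0.946 to 1.09 (passage 6) times control 1.

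Values were analysed here as log2(FPKM + 1) with limma 3.58.1 (R 4.3.3, intensity trend, two-sided), each passage alone, for genes that reached 1 FPKM in 3 or more of its libraries, adjusted by Benjamini-Hochberg over all genes tested with a threshold of 0.05. Fold changes are on the log2(FPKM + 1) scale and understate changes of low genes. The script was tested on simulated data. Summaries used Python 3.11.15, and coordinates are GENCODE and RefSeq on GRCm38.

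The members and all lists were chosen with earlier results of these data known. Members that were called, or had a mean of at least 10 FPKM in a group, have their values in every library. From each pathway list, up to 3 called genes with the largest change and a mean of at least 1 FPKM could be named, and Rest always. Alternatives were other pseudocounts, filters, scalings, trend, block and left-out libraries. A gene with an empty cell was left out. Some values named by these rules are not reported here.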

Additional observations from a re-analysis of the deposited data

Results flagged for a closer look

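In 30 groups of 4 libraries (the passage 1 experimental libraries of each gene kept), 1 library stood apart by the gap test, where chance gives about 1 in 20. Shank2 was at 0.986 FPKM in experimental library 4, against 1.07 to 1.08 in the other 3.

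The change differed between the passages for 6 genes by the limma contrast of the changes. The differences on the log2 scale were 0.52 for Syn2 (adjusted p = 0.0077), 0.53 for Sv2a (0.0086), 0.49 for Syt4 (0.018), 0.54 for Cplx1 (0.041), 0.29 for Syt1 (0.041) and -0.33 for Rab3c (0.044). Without experimental libraries 2 and 3 of passage 6 they were 0.42, 0.55, 0.54, 0.33, 0.25 and -0.32, with adjusted p of 0.067, 0.038, 0.054, 0.28, 0.15 and 0.096.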

How the results depend on the processing

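Depth is unknown, so counting error cannot be given, and with 3 or 4 libraries a group small changes may be missed. At passage 1 the genes called higher numbered 3, of which Dlg3 could only be higher. That count was 1 without a filter, 1 with the replicate block, and 0 without control 1 and experimental library 4. It was 1 to 4 when 1 library was left out (1 without control 3). Those called lower numbered 6, and 2 with the replicate block, 1 without control 1 and experimental library 4, and 3 to 7 when 1 library was left out (3 without control 2). At passage 6 those higher numbered 6, and 3 without a filter and 4 to 17 when 1 library was left out (17 without experimental library 1). Those lower numbered 0 (also 0 by limma at an unadjusted p under 0.05) and were 4 without experimental libraries 2 and 3, where Syn1 (-0.27) and Stx1a (-0.24) turned direction on the log2 scale. Between the passages the higher count of 5 was 2 without a filter, 3 with equal FPKM totals, 2 with the replicate block, 1 without experimental libraries 2 and 3 of passage 6, 3 without passage 1 control 1 and experimental library 4, and 3 to 15 when 1 library was left out. It was 3 without each control of either passage, without passage 1 experimental library 1 or 4, or without passage 6 experimental library 2 or 3, and 15 without passage 6 experimental library 1. The lower count of 1 was 0 without a filter, with equal FPKM totals, without the trend, with the replicate block, and without either pair of libraries, and 0 to 1 when 1 library was left out (1 without passage 1 experimental library 1 or 2, or passage 6 experimental library 3). Each of those lower counts of 0 between the passages was at least 1 by limma at an unadjusted p under 0.05. The cause was not tested. Control and experimental libraries that share a number were not paired in the main test. Deviations of same-numbered libraries correlated at 0.17, -0.19 and 0.24 at passage 1 and at -0.07, -0.06 and 0.03 at passage 6. So few values, from deviations that depend on each other within a group, cannot decide whether the libraries were paired. Where 1 library of a group is left, it is assumed to vary like the others.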
